A study of Mus musculus with 10 samples.

Results

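The nuclear genes of oxidative phosphorylation were followed through 10 RNA-seq libraries of mouse lung. All gene symbols that begin with Nduf, Uqcr or Atp5, the Cox4 to Cox8 subunit genes, Sdha to Sdhd, Cyc1 and Cycs were taken from the deposited FPKM table, where FPKM is the number of fragments of a transcript scaled to its length in kilobases and to the mapped fragments of the library. The rows of each symbol were added. This gave 94 genes of 24394 symbols in 122 transcript rows, and 79 of the genes had a single row. They comprised 36 subunits of complex I, 4 of complex II, 9 of complex III, 20 of complex IV, 15 of complex V, the electron carrier cytochrome c, and 9 genes that match by name only. The last are the complex I assembly factors Ndufaf1 to Ndufaf7 with Atp5s and Atp5sl. Counted among the subunits of complex IV were also Cox7a2l, a factor in the joining of complexes III and IV, and Ndufa4l2, a relative of Ndufa4. A filter of a mean of at least 1 FPKM left 91 of the 94 among 11205 genes tested. Cox8b fell under the filter, and Cox7b2 and Cox8c were listed at 0 in all 10 libraries.

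Lungs of female BALB/c mice were compared between 3 treatments. The Saline group (n = 3) was injected with saline and served as the control. The OVA group (n = 3) was sensitized by injection of ovalbumin, an egg protein, with an aluminium adjuvant, challenged with ovalbumin through the nose and, per the methods, given vehicle by mouth. The Herb group (n = 4) had the same ovalbumin protocol and received an ethanol extract of Descurainia sophia seeds (DSE in the study) by mouth. The comparisons ask how lung expression differs after the ovalbumin protocol and how far it differs with the extract. The methods name only a saline injection for the control. Allergen, adjuvant, challenge under anaesthesia and oral vehicle therefore cannot be told apart in OVA vs. Saline. OVA vs. Saline and Herb vs. OVA share the OVA libraries, and OVA vs. Saline and Herb vs. Saline share the Saline libraries, so the comparisons are not independent of one another. The p-values measure the spread between these libraries.

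Oxidative phosphorylation makes most of the ATP of resting cells in the inner mitochondrial membrane. Complex I (NADH dehydrogenase) and complex II (succinate dehydrogenase) pass electrons to ubiquinone, complex III passes them to cytochrome c, and complex IV (cytochrome c oxidase) passes them to oxygen. Complexes I, III and IV pump protons, and complex V (ATP synthase) uses the return flow to make ATP. Complex II is encoded in the nucleus alone, whereas the other complexes also contain subunits encoded in mitochondrial DNA, whose transcripts were not analysed here. In the lung, alveolar type 2 cells are known to be rich in mitochondria because surfactant production needs energy, and heart muscle in the walls of pulmonary veins has a high content of respiratory chain.

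The promoters of many respiratory chain genes are known to be bound by nuclear respiratory factor 1 (NRF1) and by the ETS family factor GABP. The NRF1 core TGCGCA, which reads the same on both strands, and the ETS core CCGGAAG, on either strand, were searched in RefSeq promoters (GRCm38.p6) that span 250 bases before and 50 bases after each start. Of the 94 genes, 77 had a promoter in that table. The NRF1 core was present in 19 of them (24.7%), against 2376 of 27025 genes overall (8.79%). The ETS core was present in 17 (22.1%), against 2683 genes overall (9.93%). These 2 motifs do not overlap in sequence. The 4 promoters that hold both are shown as examples of the 2 motifs, each of which was absent from most of the 77 genes. All 4 genes lie on the minus strand, and each window is read 5′ to 3′ along the gene, with the motif in capitals. The NRF1 core starts 237 bases before the start of Atp5l at chr9:44920963-44920990, 118 bases before that of Cox6a1 at chr5:115349060-115349087, 78 bases before that of Ndufb6 at chr4:40279483-40279510 and 80 bases before that of Sdhd at chr9:50603913-50603940. Sdhd holds a further NRF1 core 189 bases before its start, which is not shown.
Atp5l NRF1 core: ccaataacgcaTGCGCAtttcccccact
Cox6a1 NRF1 core: gacggataaagTGCGCAggcgctggagt
Ndufb6 NRF1 core: agagagggcttTGCGCAtgagcagagcc
Sdhd NRF1 core: cttcgctggggTGCGCAcgcgcggtggc

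The ETS core appears in these 4 promoters as its reverse complement, at 212 bases before the start for Atp5l (chr9:44920937-44920965), 16 bases for Cox6a1 (chr5:115348957-115348985), 232 bases for Ndufb6 (chr4:40279636-40279664) and 46 bases for Sdhd (chr9:50603878-50603906). Atp5l holds a further ETS core 24 bases after its start, which is not shown. A match to these letters is a description of the sequence and not a measured binding site. In OVA vs. Saline, the median log2 fold change was −1.72 over the 19 genes with the NRF1 core and −1.66 over the 56 tested genes without it. It was −1.86 over the 17 genes with the ETS core and −1.66 over the 58 without it.
Atp5l ETS core: acttcaccgatCTTCCGGaccaacatgaa
Cox6a1 ETS core: ccccatttccgCTTCCGGcgcgccggtgt
Ndufb6 ETS core: tcgtccttgttCTTCCGGtcccctcccct
Sdhd ETS core: ccgtctcctgcCTTCCGGttcacgcttca

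Each library held 14800000 to 29500000 mapped fragments, as estimated from the smallest steps of the values, and the median gene of the family rested on 90 to 507 fragments per library. The share of fragments on protein-coding RefSeq transcripts was 33.0 to 33.3% in Saline, 11.9 to 14.9% in OVA and 19.3 to 25.8% in Herb, and the ribosomal RNA precursor Rn45s was at 1201 to 1386, 10014 to 13531 and 3230 to 7019 FPKM in the same order. FPKM shares out the fragments of a library, so the main counts of calls are given as deposited and after scaling the libraries to a common 75th percentile of gene FPKM, and counts of genes whose groups do not overlap as deposited only. The part of this RNA composition in the results was not tested. The median of all genes tested was −0.75 in OVA vs. Saline as deposited and −0.05 after that scaling. An exact 0 in the table can be a failed estimate, since Gapdh was listed at 0 in 9 libraries. Markers of the lung were present in all groups, but the summed FPKM of 6 alveolar type 2 markers was 3066 to 4028 in Saline, 358 to 669 in OVA and 873 to 1729 in Herb. The endothelial sum was 425 to 461, 58.5 to 112 and 151 to 297 in these groups, the alveolar type 1 sum 642 to 766, 48.9 to 164 and 167 to 383, and the erythroid sum 5733 to 6967, 30.9 to 561 and 1076 to 1583. The macrophage sum was 98.8 to 208 in Saline, 84.3 to 285 in OVA and 357 to 628 in Herb, and the neutrophil sum 41.8 to 489, 9.67 to 38.1 and 42.6 to 133. The ciliated sum was 73.5 to 80.4 FPKM in Saline, 34.0 to 84.4 in OVA and 56.6 to 68.4 in Herb. In the same order, the sum of pericyte and vascular smooth muscle markers was 57.0 to 63.9, 39.7 to 56.0 and 49.9 to 79.8. The T cell sum was 8.0 to 14.3, 2.76 to 6.16 and 5.34 to 11.7. The eosinophil sum was 3.23 to 4.92, 3.17 to 4.77 and 3.29 to 7.95, and 2.37 to 3.68, 4.86 to 6.36 and 3.27 to 7.64 at a common 75th percentile. The part of these cell types in the results was not tested. In whole tissue, fewer cells of a type and less RNA per cell cannot be told apart. The library Saline replicate 2 stood apart for the family, with the highest Saline value of 76 of 91 genes. Its median log2 difference from the mean of the other Saline libraries was 0.36 over the family and −0.02 over all 11205 genes.

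The respiratory chain genes were abundant in the normal lung and were several-fold lower in OVA lungs as deposited. Summed over the family, the level was 1997, 2737 and 1935 FPKM in Saline, 391, 640.1 and 694 FPKM in OVA, and 1207, 1362, 956 and 1266 FPKM in Herb. The 3 groups did not overlap, with all OVA libraries lowest and all Herb libraries between the others. The Saline mean was 3.87 times the OVA mean as deposited and 1.98 times at a common 75th percentile. As a share of all protein-coding FPKM, the family took 1.42 to 1.85% in Saline, 0.999 to 1.33% in OVA and 1.29 to 1.47% in Herb, so Saline and OVA did not overlap on this scale and Herb overlapped both. The genes tested had a median level of 12.2 FPKM and a median transcript length of 780 nt, compared with 3.55 FPKM and 2826 nt over all genes tested.

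**Figure D1:**
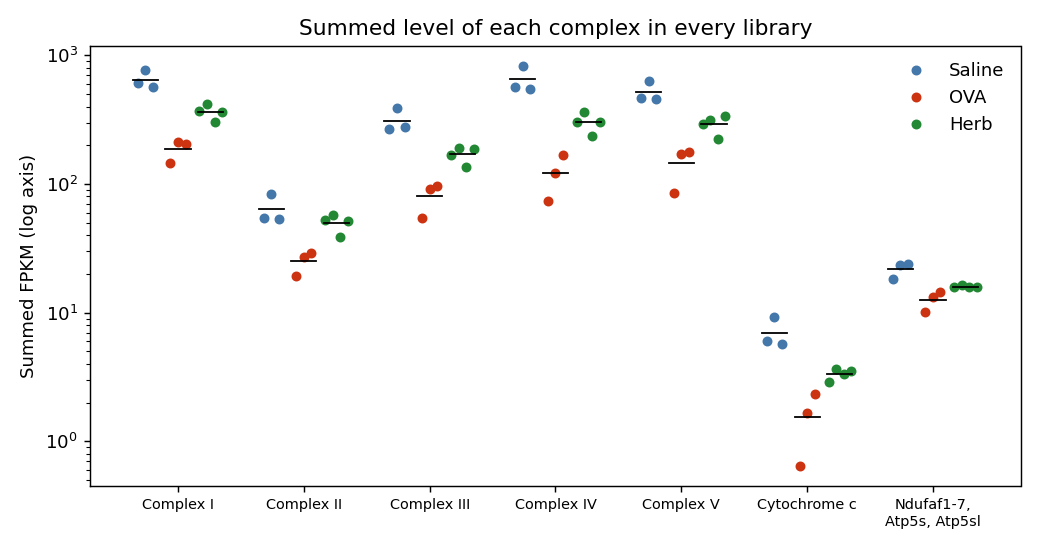
Summed FPKM (log axis) of the subunits of each complex, of cytochrome c and of the 9 genes matched by name only; points are the libraries of Saline (n = 3), OVA (n = 3) and Herb (n = 4) and bars the group means. For complex IV the Saline libraries lie at 552 to 828, the OVA libraries at 74.5 to 167 and the Herb libraries at 237 to 363 FPKM.

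The sums differed in size between complexes. Complex I summed to 649.6 ± 109 FPKM in Saline, 188 ± 36.4 in OVA and 362 ± 46.2 in Herb (SD, n = 3, 3 and 4 here and for the other sums). Complex II summed to 63.9 ± 17.6, 25.1 ± 5.07 and 49.9 ± 7.83 FPKM, and complex III to 311 ± 66.0, 80.8 ± 23.0 and 170.0 ± 25.2 FPKM. For complex IV the values were 650.4 ± 154, 121 ± 46.4 and 303 ± 51.6 FPKM, and for complex V 519 ± 98.3, 145 ± 52.0 and 294 ± 49.99 FPKM. The ratio of the Saline mean to the OVA mean was thus 5.35 for complex IV, 3.85 for complex III, 3.58 for complex V, 3.45 for complex I and 2.55 for complex II as deposited. These ratios were 2.75, 1.97, 1.85, 1.76 and 1.30 at a common 75th percentile. The differences between these ratios were not tested. The 9 genes matched by name only summed to 21.9 ± 3.04, 12.6 ± 2.26 and 15.9 ± 0.294 FPKM, with a ratio of 1.74 as deposited and 0.883 at a common 75th percentile.

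In OVA vs. Saline, 77 of the 91 genes were lower and 0 were higher as deposited, and 14 did not pass (limma with a trend on log2(FPKM + 1), Benjamini-Hochberg adjusted p under 0.05 over all 11205 genes, here and throughout). Among all genes tested, 57.9% were lower and 3.28% higher. The median log2 fold change of the family was −1.67 as deposited, −0.79 at a common 75th percentile, where 49 genes were lower and 0 higher against a background of 22.5% lower and 19.1% higher, and −0.29 at a common sum of protein-coding FPKM, where 30 were lower and 10 higher against a background of 8.81% lower and 37.8% higher. It was −0.50 at a common mRNA fragment share, with 36 lower and 4 higher against a background of 13.3% lower and 29.5% higher, and −0.45 after quantile normalization, with 29 lower and 5 higher against 17.1% and 18.6%. The OVA and Saline libraries did not overlap, with OVA lower, for 78 of 91 genes (85.7%) as deposited, against 63.0% of all genes tested. Counted by lower calls under all 5 scalings, 25 genes of the family (27.5%) remained, compared with 917 genes overall (8.18%). These were 11 subunits of complex I, 2 of complex III, 8 of complex IV and 4 of complex V. Without Saline replicate 2, 74 genes of the family were lower as deposited and 35 at a common 75th percentile.

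**Figure D2:**
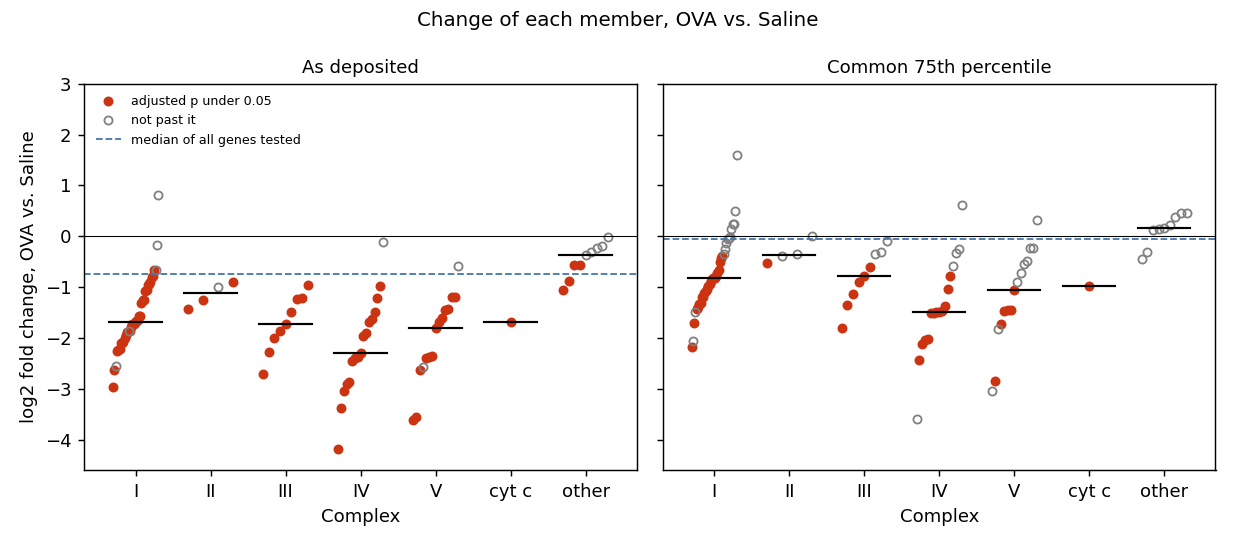
Log2 fold change in OVA vs. Saline of every tested gene (points, filled where the adjusted p is under 0.05) by complex, as deposited and at a common 75th percentile; bars are the medians of each complex and the dashed line is the median of all genes tested. The medians of the 5 complexes run from −1.12 (complex II) to −2.29 (complex IV) as deposited and from −0.37 to −1.48 at a common 75th percentile.

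Complex IV had the lowest median of the 5 complexes, −2.29 as deposited with 16 of 17 tested genes lower, and −1.48 with 12 lower at a common 75th percentile. These 17 include Cox7a2l and Ndufa4l2. Of all genes tested, 57.9% were lower as deposited and 22.5% at a common 75th percentile, here and for the complexes below. Its 11 ubiquitous subunits had a median of −2.40 and −1.48 on these scales, with 10 and 8 lower. Cox6c, a small subunit of the ubiquitous set (chr15:35931976-35938246, GRCm38.p6), was at 90.2, 150.3 and 86.6 FPKM in Saline, 10.5, 4.31 and 16.7 FPKM in OVA, and 41.3, 54.0, 32.0 and 49.2 FPKM in Herb. Every Saline library was above every Herb library and every Herb library above every OVA library. Its log2 fold change in OVA vs. Saline was −3.38 ± 0.42 (SE, adjusted p = 0.0002), and −2.44 at a common 75th percentile (adjusted p = 0.0032). Ndufa4, named after complex I but known as a subunit of complex IV, was at 59.3, 100.2 and 63.7 FPKM in Saline, 4.22, 9.08 and 12.4 FPKM in OVA, and 21.1, 31.3, 18.5 and 22.1 FPKM in Herb. It showed the same order of groups without overlap and was lower in OVA vs. Saline by −3.04 ± 0.36 (SE, adjusted p = 0.00017).

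Among further small subunits, Cox7b, on the X chromosome, was at 19.7, 37.3 and 19.1 FPKM in Saline, 1.63, 2.44 and 3.64 FPKM in OVA, and 6.55, 9.91, 6.38 and 7.44 FPKM in Herb. The groups did not overlap, and Saline replicate 2 was the highest library. In OVA vs. Saline, Cox7b was lower by −2.86 ± 0.30 (SE, adjusted p = 0.00015), and by −2.04 at a common 75th percentile (adjusted p = 0.0013). Cox7a2 was lower by −2.91 ± 0.33 (adjusted p = 0.00016) and Cox6a1, which carries both motifs shown above, by −2.40 ± 0.26 (adjusted p = 0.00015). Cox8a was at −2.45 ± 0.36 (adjusted p = 0.0004) and Cox6b1 at −2.29 ± 0.30 (adjusted p = 0.00023). These subunits were also lower at a common 75th percentile, with values from −2.04 (Cox7b) to −1.36 (Cox6b1). Cox4i1, the regulatory subunit that assembles early around the catalytic core, moved less. It was at 67.2, 80.3 and 67.8 FPKM in Saline, 21.8, 36.0 and 34.8 FPKM in OVA, and 63.0, 58.8, 53.0 and 69.7 FPKM in Herb, with OVA below both other groups and Herb overlapping Saline. Its log2 fold change was −1.22 ± 0.21 (SE, adjusted p = 0.001) as deposited, −0.25 (adjusted p = 0.24) at a common 75th percentile, and 0.67 after quantile normalization, where it was called higher (adjusted p = 0.009187).

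Complex I, the entry point for electrons from NADH, had 31 of 36 subunits lower in OVA vs. Saline as deposited (median −1.69) and 23 at a common 75th percentile (median −0.82). The nuclear core subunits, which carry the flavin and iron-sulfur centres, and the accessory subunits differed in median. The 29 accessory subunits had a median of −1.73 as deposited and −0.88 at a common 75th percentile, with 25 and 21 lower. The 7 core subunits had a median of −0.94 with 6 lower as deposited, and −0.04 with 2 lower at a common 75th percentile, and their median was above 0 under the other scalings, at 0.47 for the protein-coding sum, 0.26 for the mRNA fragment share and 0.26 after quantile normalization. At a common 75th percentile the share of core subunits called lower (2 of 7) was near that of all genes tested (22.5%). The difference between core and accessory subunits was not tested.

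Ndufa6, a small accessory subunit with the highest mean level of complex I, was at 40.5, 60.7 and 43.3 FPKM in Saline, 5.48, 9.41 and 6.18 FPKM in OVA, and 21.8, 23.2, 12.9 and 18.1 FPKM in Herb. The groups did not overlap, with Herb between the others. It was lower in OVA vs. Saline by −2.62 ± 0.27 (SE, adjusted p = 0.00015) as deposited and by −1.71 (adjusted p = 0.001) at a common 75th percentile. Ndufa7 was lower by −2.24 ± 0.25 (adjusted p = 0.00016) and Ndufb9 by −1.73 ± 0.29 (adjusted p = 0.00075), both also lower at a common 75th percentile (−1.33 and −0.81). Ndufv1, the flavoprotein that binds NADH, was named after its values were seen because it had the smallest decrease among the core subunits called. It was at 15.6, 14.8 and 15.3 FPKM in Saline, 9.09, 10.5 and 8.28 FPKM in OVA, and 15.1, 13.7, 11.5 and 15.1 FPKM in Herb. Its log2 fold change was −0.67 ± 0.14 (SE, adjusted p = 0.0029) as deposited, 0.24 (adjusted p = 0.14) at a common 75th percentile, and it was called higher at a common sum of protein-coding FPKM, at a common mRNA fragment share and after quantile normalization. Ndufs1, the largest core subunit, was at −0.94 ± 0.14 (adjusted p = 0.0004) and −0.04 (adjusted p = 0.79) on the first 2 scales. At a common sum of protein-coding FPKM, the 10 genes called higher were Ndufv1, Ndufs1, Ndufv3, Ndufb7, Sdhc, Ndufaf3, Ndufaf5, Ndufaf6, Ndufaf7 and Atp5sl.

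**Figure D3:**
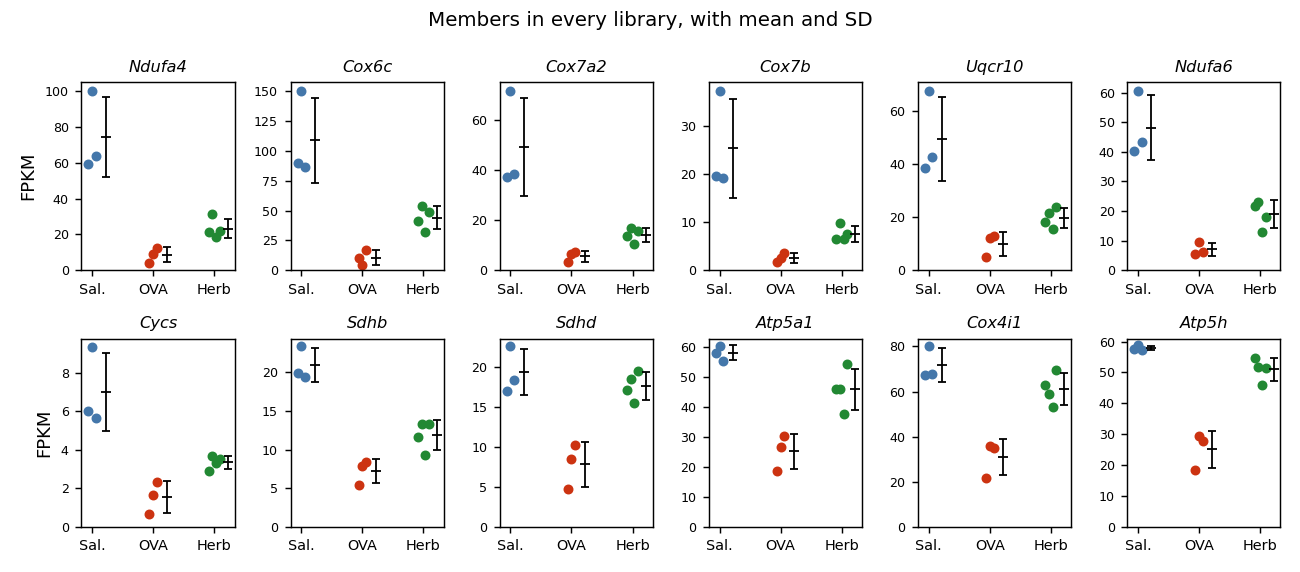
FPKM of 12 genes in each library of Saline (n = 3), OVA (n = 3) and Herb (n = 4), with the mean and SD beside the points. Cox6c, Ndufa4, Cox7a2, Cox7b and Ndufa6 have the OVA libraries lowest, the Herb libraries between and the Saline libraries highest without overlap, whereas Cox4i1 and Sdhd have Herb libraries within the Saline range.

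Complex III, which moves electrons from ubiquinol to cytochrome c, had 9 of 9 subunits lower as deposited (median −1.72) and 6 at a common 75th percentile (median −0.78). Uqcrh, the hinge protein that contacts cytochrome c1, was at 78.8, 106 and 84.5 FPKM in Saline, 17.4, 30.2 and 25.3 FPKM in OVA, and 65.8, 72.0, 47.7 and 67.8 FPKM in Herb. The groups did not overlap, and its log2 fold change in OVA vs. Saline was −1.87 ± 0.24 (SE, adjusted p = 0.00023), and −0.90 (adjusted p = 0.0042) at a common 75th percentile. Uqcr10 was lower by −2.28 ± 0.36 (adjusted p = 0.00055) and Uqcr11 by −1.72 ± 0.28 (adjusted p = 0.00066), and both were lower at a common 75th percentile. Cycs, cytochrome c itself, was at 5.999, 9.30 and 5.66 FPKM in Saline, 0.645, 1.66 and 2.33 FPKM in OVA, and 2.89, 3.68, 3.31 and 3.49 FPKM in Herb. All OVA libraries were below all Herb libraries and these below all Saline libraries. The difference in OVA vs. Saline was −1.68 ± 0.26 (SE, adjusted p = 0.00049), and −0.98 (adjusted p = 0.016) at a common 75th percentile.

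Complex II, which is also an enzyme of the citric acid cycle, had 3 of 4 subunits lower as deposited (median −1.12) and 1 at a common 75th percentile (median −0.37), and its median was 0.08 at a common sum of protein-coding FPKM. The share of 1 of 4 was near that of all genes tested at a common 75th percentile (22.5%). Sdhb, the iron-sulfur subunit, was at 19.9, 23.4 and 19.4 FPKM in Saline, 5.46, 7.82 and 8.39 FPKM in OVA, and 11.7, 13.2, 9.28 and 13.4 FPKM in Herb, with no overlap between the groups. It was lower by −1.43 ± 0.19 (SE, adjusted p = 0.00025), and by −0.52 (adjusted p = 0.017) at a common 75th percentile. The membrane anchor Sdhd was at 17.0, 22.6 and 18.4 FPKM in Saline, 4.77, 8.50 and 10.2 FPKM in OVA, and 17.1, 18.4, 15.5 and 19.5 FPKM in Herb, so that Herb overlapped Saline and OVA did not overlap either. Sdhd was lower in OVA vs. Saline by −1.25 ± 0.24 (adjusted p = 0.0016) and the other anchor, Sdhc, by −0.90 ± 0.24 (adjusted p = 0.0094). At a common 75th percentile they were at −0.34 (adjusted p = 0.19) and 0.00 (adjusted p = 1), and Sdhc was called higher at a common sum of protein-coding FPKM (0.51). Sdha, the flavoprotein subunit, was at 1.48, 21.9 and 0.834 FPKM in Saline, 4.21, 0.597 and 0.561 FPKM in OVA, and 10.04, 10.8, 0.531 and 0.623 FPKM in Herb. These values split within each group, and the difference of −1.002 ± 1.15 (SE) did not pass (adjusted p = 0.47).

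Complex V had 13 of 15 subunits lower in OVA vs. Saline as deposited (median −1.80) and 6 at a common 75th percentile (median −1.05). The 10 subunits of the membrane part F0 and the stalk had a median of −2.38 as deposited and −1.46 at a common 75th percentile, with 9 and 6 lower. The 5 subunits of the catalytic head F1 had a median of −1.43 with 4 lower as deposited, −0.49 with 0 lower at a common 75th percentile, and 0.05 and 0.36 at the common protein-coding sum and after quantile normalization. The difference between these parts was not tested. Atp5g2, Atp5j2 and Atp5o, of F0 and the stalk, were listed at 0 in some libraries. Atp5a1, the F1 alpha subunit, was at 58.0, 60.4 and 55.4 FPKM in Saline, 18.6, 26.6 and 30.1 FPKM in OVA, and 45.8, 45.7, 37.4 and 54.1 FPKM in Herb. It was lower in OVA vs. Saline by −1.20 ± 0.20 (SE, adjusted p = 0.00085) as deposited, was at −0.24 (adjusted p = 0.25) at a common 75th percentile, and was called higher after quantile normalization. Atp5h, the stalk subunit d, was at 57.7, 58.8 and 57.2 FPKM in Saline, 18.3, 29.3 and 27.7 FPKM in OVA, and 54.6, 51.8, 46.0 and 51.5 FPKM in Herb. Its log2 fold change was −1.20 ± 0.19 (adjusted p = 0.00052), −0.24 (adjusted p = 0.15) and 0.63 (adjusted p = 0.008888) on the 3 scales. Atp5e, the F1 epsilon subunit, was lower by −1.44 ± 0.27 (adjusted p = 0.0013), and was at −0.49 (adjusted p = 0.096) at a common 75th percentile.

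Herb lungs had higher deposited levels than OVA lungs for most of the family, and this difference was not called on any other scale. In Herb vs. OVA, 64 of 91 genes were higher and 0 lower as deposited (median 0.89), against 44.0% of all genes higher (median 0.48). At a common 75th percentile 0 genes of the family were called by limma, with 31 at an unadjusted p under 0.05 and a median of 0.39, while 0.348% of all genes were lower and 0.330% higher. The protein-coding sum, the mRNA fragment share and quantile normalization also called 0 genes of the family, with medians of 0.20, 0.29 and 0.31. The groups did not overlap, with Herb higher, for 69 of 91 genes (75.8%) as deposited, against 49.6% of all genes. Higher calls as deposited covered 27 of 36 subunits of complex I, 3 of 4 of complex II, 8 of 9 of complex III, 13 of 17 of complex IV and 11 of 15 of complex V, with medians of 0.88, 0.84, 0.93, 1.09 and 1.04. Of the 9 genes matched by name only, 1 was higher.

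Cox6c had the highest value among the genes called in Herb vs. OVA, 2.11 ± 0.39 as deposited (SE, adjusted p = 0.0072) and 1.52 (adjusted p = 0.079) at a common 75th percentile. Uqcrh was higher by 1.36 ± 0.23 (adjusted p = 0.0072), Ndufa6 by 1.32 ± 0.25 (adjusted p = 0.0072) and Ndufa4 by 1.42 ± 0.34 (adjusted p = 0.011). At a common 75th percentile these 3 were at 0.74 (adjusted p = 0.069), 0.74 (adjusted p = 0.078) and 0.84 (adjusted p = 0.12). Sdhd was higher by 1.13 ± 0.22 (adjusted p = 0.0074), Atp5h by 1.02 ± 0.17 (adjusted p = 0.0072), Cox4i1 by 0.99 ± 0.20 (adjusted p = 0.0077) and Atp5a1 by 0.86 ± 0.19 (adjusted p = 0.0094). Uqcr10 (1.02, adjusted p = 0.035) and Uqcr11 (0.75, adjusted p = 0.043) were called as deposited but were lost without OVA replicate 1 (adjusted p = 0.1026 and 0.1514), and the smaller calls of Cycs (0.83, adjusted p = 0.023) and Sdhb (0.65, adjusted p = 0.017) were lost without it as well (adjusted p = 0.06836 and 0.05807). Cycs was also lost without Herb replicate 2 (adjusted p = 0.05488). Uqcr10 was further lost without Herb replicate 1, 2 or 4 (adjusted p = 0.06255, 0.07655 and 0.07546), and Uqcr11 without Herb replicate 1, 2 or 4 or OVA replicate 2 (adjusted p = 0.06243, 0.1011, 0.08421 and 0.06831). Ndufs5, at 2.49, 2.99 and 1.69 FPKM in Saline, 2.78, 3.02 and 0.754 FPKM in OVA, and 1.59, 1.64, 1.31 and 0.846 FPKM in Herb, had one of the lowest differences in Herb vs. OVA (−0.36, adjusted p = 0.34), which was −0.75 and passed without OVA replicate 3 (adjusted p = 0.02573).

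Levels in Herb lungs were below those in Saline lungs for part of the family. In Herb vs. Saline, 47 of 91 genes were lower and 0 higher as deposited (median −0.77), against 22.7% of all genes lower (median −0.27). At a common 75th percentile 21 were lower and 0 higher (median −0.47), with 7.57% of all genes lower and 6.68% higher. These counts changed with the libraries kept, and fell least without Herb replicate 2. As deposited the count was 15 without Saline replicate 2, 30 without Saline replicate 1, 29 without Saline replicate 3, 29 without Herb replicate 1, 28 without Herb replicate 3 and 31 without Herb replicate 4. At a common 75th percentile the count was 0 without Saline replicate 2, 8 and 9 without Saline replicates 1 and 3, and 11, 5 and 9 without Herb replicates 1, 3 and 4. Herb and Saline did not overlap, with Herb lower, for 63 of 91 genes (69.2%) as deposited, against 36.6% of all genes. Lower calls as deposited covered 23 subunits of complex I, 1 of complex II, 5 of complex III, 10 of complex IV and 5 of complex V.

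Some subunits of complexes II, III, IV and V did not pass in Herb vs. Saline. Among them, Sdhc was at −0.07 (adjusted p = 0.83), Sdhd at −0.12 (adjusted p = 0.72), Cox4i1 at −0.23 ± 0.20 (SE, adjusted p = 0.42), Atp5h at −0.18 (adjusted p = 0.46) and Uqcrh at −0.50 (adjusted p = 0.13). Ndufa4 was lower by −1.62 ± 0.34 (adjusted p = 0.013), Cox7a2 by −1.68 ± 0.31 (adjusted p = 0.01), Cox7b by −1.57 ± 0.28 (adjusted p = 0.0097) and Ndufa6 by −1.31 ± 0.25 (adjusted p = 0.011), and these 4 were also lower at a common 75th percentile (−1.28, −1.34, −1.24 and −0.97). Without Saline replicate 2 the adjusted p of Ndufa4 was 0.05429. Cox6c was lower by −1.26 ± 0.39 (SE, adjusted p = 0.044), a call that was lost without any 1 library other than Herb replicate 2 (adjusted p from 0.07602 to 0.1442). Only Cox6a2 and Uqcrc2 were lower under all 5 scalings, which is 2.20% of the family and compares with 196 genes (1.75%) overall.

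Several complex IV subunits have tissue isoforms. Cox6a2, Cox7a1 and Cox8b are the forms of heart and skeletal muscle, Cox4i2 is the form known from lung and responsive to hypoxia, Cox6b2 is the testis form, and Ndufa4l2 is a relative of Ndufa4 induced by low oxygen. Cox6a2 (chr7:128205435-128206366) was at 3.36, 7.55 and 2.47 FPKM in Saline, 0.127, 0.670 and 0.150 FPKM in OVA, and 0.706, 1.37, 0.386 and 0.277 FPKM in Herb. Saline lay above both other groups, which overlapped. It was lower in OVA vs. Saline by −1.97 ± 0.36 (SE, adjusted p = 0.0012) and in Herb vs. Saline by −1.63 ± 0.33 (adjusted p = 0.012), and the Herb vs. OVA difference of 0.34 did not pass (adjusted p = 0.43). Cox7a1 was at 1.37, 8.58 and 2.93 FPKM in Saline, 0.158, 0 and 0.476 FPKM in OVA, and 0.517, 2.42, 0.517 and 0.565 FPKM in Herb. OVA lay below both other groups, and Saline replicate 2 and Herb replicate 2 were the highest libraries of their groups. Its log2 fold change in OVA vs. Saline was −1.90 ± 0.50 (SE, adjusted p = 0.0087), and −1.49 (adjusted p = 0.034) at a common 75th percentile. Cox8b, untested, was at 1.25, 2.004 and 0.981 FPKM in Saline, 0, 0.223 and 0 FPKM in OVA, and 0.378, 0.847, 0 and 0.114 FPKM in Herb.

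The markers of striated muscle moved in part with these isoforms. The sum of 10 cardiac muscle markers was 26.7, 74.5 and 13.2 FPKM in Saline, 8.01, 8.67 and 11.2 FPKM in OVA, and 7.74, 15.7, 12.1 and 25.6 FPKM in Herb, highest in Saline replicate 2, where Cox6a2 and Cox7a1 were also highest. The atrial light chain Myl7 was at 22.7 FPKM in that library. In Herb replicate 4, the cardiac sum was the highest of its group (25.6 FPKM) and Cox6a2 the lowest (0.277 FPKM). At a common 75th percentile the cardiac sums were 9.70 to 55.7 in Saline, 11.6 to 15.9 in OVA and 7.04 to 24.6 in Herb. The sum of 8 skeletal muscle markers was 142 FPKM in Herb replicate 2 and 0.246 to 1.44 FPKM in all other libraries, and skeletal actin Acta1 was at 65.6 FPKM in Herb replicate 2 and at most 0.248 elsewhere. None of the marker lists had a gene at 0 in all libraries. The part of muscle in the isoform values was not tested, and without Saline replicate 2 Cox6a2 was at −1.59 (adjusted p = 0.003083) and Cox7a1 at −1.35 (adjusted p = 0.0217) in OVA vs. Saline.

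**Figure D4:**
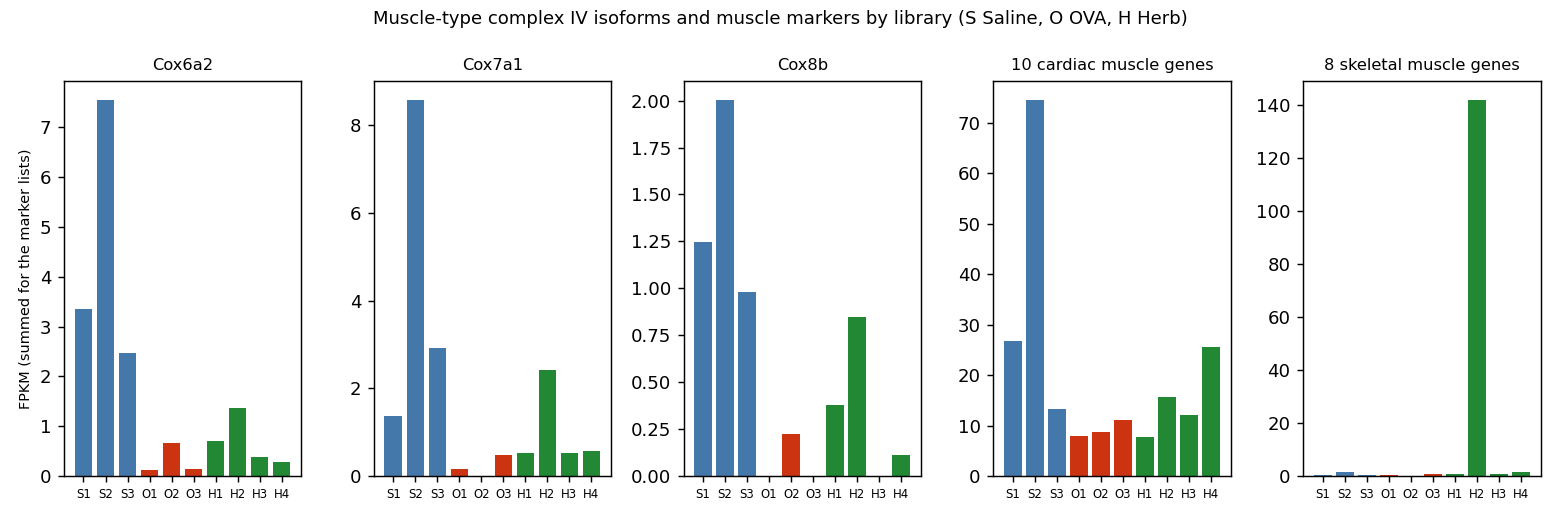
Bars give the FPKM of Cox6a2, Cox7a1 and Cox8b and the summed FPKM of the cardiac (10 genes) and skeletal (8 genes) muscle markers in each of the 10 libraries, coloured by group. Saline replicate 2 is highest for the cardiac sum (74.5), Cox6a2 (7.55), Cox7a1 (8.58) and Cox8b (2.004), and Herb replicate 2 alone is high for the skeletal sum (142).

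The minor isoforms were the smaller part of each pair in every library. Cox4i2 was at 11.9, 12.01 and 15.0 FPKM in Saline, 3.99, 4.46 and 2.31 FPKM in OVA, and 7.32, 9.33, 4.86 and 4.83 FPKM in Herb, and fell in OVA vs. Saline (−1.63 ± 0.27, adjusted p = 0.00067, and −0.79, adjusted p = 0.031, at a common 75th percentile). As a share of Cox4i1 plus Cox4i2, it made up 13.0 to 18.1% in Saline, 6.21 to 15.5% in OVA and 6.48 to 13.7% in Herb, so the ranges overlapped. Cox6a2 made up 4.91 to 12.6% of its pair in Saline, 1.28 to 5.83% in OVA and 1.22 to 5.33% in Herb. Ndufa4l2 was at 5.25, 4.88 and 5.34 FPKM in Saline, 1.23, 0.914 and 0.659 FPKM in OVA, and 1.95, 3.64, 1.62 and 2.06 FPKM in Herb, with the groups not overlapping, and was lower in OVA vs. Saline by −1.68 ± 0.21 (SE, adjusted p = 0.00019). It formed 4.65 to 8.14% of the pair with Ndufa4 in Saline, 5.03 to 22.6% in OVA and 8.05 to 10.4% in Herb. Cox6b2 was lower by −0.97 ± 0.15 (adjusted p = 0.00044) as deposited, was at −0.33 (adjusted p = 0.18) at a common 75th percentile, and formed 4.51 to 6.99% of its pair in Saline, 7.71 to 17.6% in OVA and 7.57 to 15.3% in Herb. On this share the Saline libraries were all below the OVA and Herb libraries.

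The membrane ring of ATP synthase is built from subunit c, which 3 genes encode with the same mature protein. Atp5g1 was at 4.27, 6.54 and 4.84 FPKM in Saline, 0.690, 0.899 and 1.15 FPKM in OVA, and 2.36, 2.77, 2.29 and 3.08 FPKM in Herb, without overlap between the groups. It was lower in OVA vs. Saline by −1.69 ± 0.16 (SE, adjusted p = 0.00015) and by −1.05 (adjusted p = 0.0015) at a common 75th percentile. Atp5g3 was at 23.1, 37.8 and 31.2 FPKM in Saline, 2.67, 11.1 and 14.9 FPKM in OVA, and 14.5, 29.8, 11.6 and 30.8 FPKM in Herb, and was lower by −1.80 ± 0.56 (adjusted p = 0.02) as deposited, a call lost without OVA replicate 1 (adjusted p = 0.0504), Saline replicate 2 (adjusted p = 0.06025) or Saline replicate 3 (adjusted p = 0.05011). Atp5g2 was at 15.0, 21.8 and 13.2 FPKM in Saline, 3.03, 0 and 5.27 FPKM in OVA, and 0.0179, 0, 0 and 11.8 FPKM in Herb. Atp5g3 took 54.6 to 63.3% of the 3 genes in Saline, 41.8 to 92.5% in OVA and 67.5 to 91.5% in Herb. Reads of near-identical copies of these genes may be shared between them.

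Some genes jumped within a group. In 9 genes, among them Atp5g2, Atp5j2, Atp5o, Cox5b and Cox7a2l, the highest library of a group was at 5 FPKM or more and over 10 times the lowest, and 8 genes were listed at 0 in some libraries and above 0 in others. Cox7a2l, a factor in the joining of complexes III and IV, was at 36.4, 54.6 and 40.8 FPKM in Saline, 0.00667, 0.0296 and 12.9 FPKM in OVA, and 39.8, 33.0, 13.2 and 0.234 FPKM in Herb. Of the transcript models without a symbol near its row in the table, 1 was at 14.1 FPKM in OVA replicate 1 and 0 in OVA replicate 2, and another was at 0 and 17.4 FPKM in these libraries. Whether either holds the same gene rests on table order alone. The call of Cox7a2l in OVA vs. Saline (−4.19 ± 1.38, adjusted p = 0.025) was lost without any 1 library other than OVA replicate 3 (adjusted p from 0.05131 to 0.08689) and at a common 75th percentile (adjusted p = 0.073).

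Atp5j2 was at 37.1, 64.2 and 36.8 FPKM in Saline, 0, 5.86 and 7.64 FPKM in OVA, and 14.0, 18.9, 10.9 and 15.7 FPKM in Herb, and without OVA replicate 1 it was at −2.56 (adjusted p = 0.0005588), against −3.54 ± 0.70 (adjusted p = 0.0019) with it. Its difference in Herb vs. OVA (2.002 ± 0.65, adjusted p = 0.034) was 1.02 without that library, and the call was lost without Herb replicate 1, 2 or 4 (adjusted p = 0.06467, 0.07767 and 0.06324). Atp5o was at 17.9, 31.7 and 20.6 FPKM in Saline, 0.0162, 0 and 6.11 FPKM in OVA, and 11.8, 13.8, 0 and 10.9 FPKM in Herb, and its call in OVA vs. Saline (−3.62 ± 1.09, adjusted p = 0.017) was lost without OVA replicate 1 (adjusted p = 0.0608), OVA replicate 2 (adjusted p = 0.05671) or Saline replicate 2 (adjusted p = 0.05027).

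Cox5b was at 16.2, 1.32 and 1.91 FPKM in Saline, 1.5, 2.96 and 8.44 FPKM in OVA, and 1.93, 11.1, 3.47 and 13.2 FPKM in Herb, with no call in OVA vs. Saline (−0.10 ± 0.88, adjusted p = 0.93). Ndufa12 was at 0, 12.9 and 8.42 FPKM in Saline, 0, 0 and 1.69 FPKM in OVA, and at 0 in all Herb libraries, and Ndufa3 was at 29.8, 46.9 and 0.0166 FPKM in Saline, 6.36, 0 and 0 FPKM in OVA, and 0.480, 24.0, 14.2 and 0 FPKM in Herb. Ndufb11 was at 23.5, 6.08 and 21.4 FPKM in Saline, 6.89, 9.84 and 10.6 FPKM in OVA, and 20.9, 23.1, 15.0 and 19.2 FPKM in Herb. Its difference in OVA vs. Saline was −0.65 (adjusted p = 0.21) and passed without Saline replicate 2 (adjusted p = 0.002729). Atp5g2 was lower in Herb vs. Saline by −3.19 ± 0.95 (SE, adjusted p = 0.039), a call lost without any 1 library other than Herb replicate 4, and the model beside it was at 5.04, 5.60 and 4.43 FPKM in Herb replicates 1 to 3 and 0.364 FPKM in Herb replicate 4.

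The change in OVA lungs varied with level and transcript length within the family, as a description over 91 genes of the same libraries. Pearson's r of the log2 fold change in OVA vs. Saline with log2 length was 0.41 (rho = 0.46), and with the log2 mean level it was −0.50 (rho = −0.49), so shorter and more abundant genes had lower values. The r with log2 length was 0.40 (rho = 0.45) at a common 75th percentile. Level enters both axes of the second relation. Between 500 and 750 nt, the 34 genes of the family had a median of −1.96 and all 291 genes tested of that length −1.32. Below 500 nt the medians were −1.90 over 9 and −0.40 over 389 genes, and from 2000 nt they were −0.94 over 9 and −0.72 over 7560 genes. Of the 389 genes, 11.1% were called higher as deposited, against 1.72% of the 291. Protein-coding and other transcripts were not separated in these ranges, and the totals include the family. Between 20 and 100 FPKM, 22 of 22 genes of the family were lower as deposited, with a median of −2.39, against 89.8% of 451 genes at this level with a median of −2.06. After scaling to a common 75th percentile, 16 of the 22 were lower, with a median of −1.47, against 65.6% and −1.11. The part of level and length in the counts by complex was not tested.

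**Figure D5:**
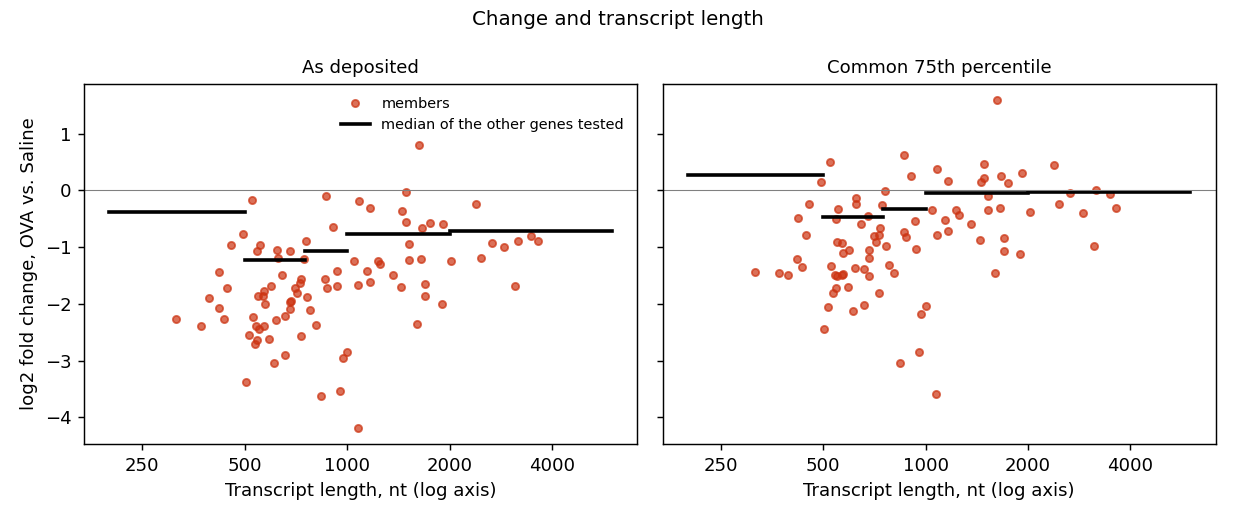
Log2 fold change in OVA vs. Saline of the 91 tested genes (points) against transcript length in nt (log axis), as deposited and at a common 75th percentile; bars are the medians of the other genes tested in each range of length. Most points under 750 nt lie below the bars, and the 9 genes of 2000 nt or more have a median of −0.94 as deposited.

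Most of the listed mitochondrial genes outside the name rule were lower in OVA vs. Saline as deposited, where 57.9% of all genes tested were lower and 3.28% higher. These shares of all genes were 22.5% and 19.1% at a common 75th percentile. Of 69 mitochondrial ribosomal proteins, which translate the mitochondrially encoded subunits, 58 were lower and 0 higher (median −1.05), and 25 were lower and 2 higher at a common 75th percentile (median −0.30). Of 23 genes of the citric acid cycle and pyruvate dehydrogenase, 18 were lower and 0 higher (median −1.37), and 12 and 0 at a common 75th percentile (median −0.56). Of 35 assembly factors, 27 were lower and 0 higher (median −0.82), and 10 (28.6%) and 3 (8.57%) at a common 75th percentile (median −0.13), so the lower share there was near that of all genes. From a list of adenine nucleotide and related carriers, Vdac channels and an ATPase inhibitor, 8 genes were tested. Of these, 7 were lower and 0 higher (median −1.60), and 4 and 0 at a common 75th percentile (median −0.69). Slc25a4, the ADP/ATP carrier of heart and muscle, was at 40.2, 46.7 and 38.5 FPKM in Saline, 11.1, 15.7 and 10.97 FPKM in OVA, and 27.7, 33.9, 17.7 and 29.3 FPKM in Herb, and was lower in OVA vs. Saline by −1.67 ± 0.24 (SE, adjusted p = 0.00038). Pdk4, which inhibits pyruvate dehydrogenase, was at 15.2, 32.0 and 16.7 FPKM in Saline, 1.87, 2.30 and 0.848 FPKM in OVA, and 10.5, 19.7, 3.61 and 4.70 FPKM in Herb, and was lower by −3.02 ± 0.54 (adjusted p = 0.0012).

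The 14 tested regulators of mitochondrial biogenesis were mixed, with 7 lower and 2 higher as deposited (median −0.40) and 1 lower and 7 higher at a common 75th percentile (median 0.36). Esrra, a nuclear receptor that activates respiratory chain genes, was at 2.73, 2.62 and 2.77 FPKM in Saline, 3.78, 4.23 and 5.74 FPKM in OVA, and 4.54, 4.11, 5.07 and 5.66 FPKM in Herb. All Saline libraries were below all others, and Esrra was higher in OVA vs. Saline by 0.58 ± 0.15 (SE, adjusted p = 0.0088) as deposited and by 1.35 (adjusted p = 0.00099) at a common 75th percentile. Tfam, the packaging factor of mitochondrial DNA, was at −0.97 (adjusted p = 0.0004) and −0.27 (adjusted p = 0.065) on these scales. In Herb vs. OVA as deposited, 44 of 69 mitochondrial ribosomal proteins, 15 of 23 citric acid cycle and pyruvate dehydrogenase genes and 23 of 35 assembly factors were higher. So were 7 of 8 genes of the carrier and channel list and 4 of 14 regulators, against 44.0% of all genes tested. The share of the regulators (28.6%) was below that of all genes. Of these lists, only 1 mitochondrial ribosomal protein was higher at a common 75th percentile.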

How the data were processed

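The lungs of 10 mice in 3 groups were profiled by RNA-seq. Per the labels and methods of the study, the authors trimmed reads with cutadapt 1.10, aligned them to mm10 with HISAT2, assembled transcripts with StringTie 1.3.3b and read out abundance with ballgown. They deposited 1 table of FPKM values with 66548 rows, of which 34943 have a gene symbol. The labels and the methods name different RNA extraction and library kits, so the strand setting is not taken as known. Read counts were not analysed here, so limma 3.58.1 (R 4.3.3) was run with a trend on log2(FPKM + 1), FPKM being summed per symbol, over all 10 libraries with 3 group means. Differences of genes with low FPKM are understated on this scale. The threshold was an adjusted p under 0.05 (Benjamini-Hochberg), and the filter a mean of at least 1 FPKM. The fit was checked on simulated normal log2 values with a small part of the genes changed. That simulation held no shift in RNA composition, so it does not cover the one between these groups. Fragment numbers were estimated from the lowest FPKM steps and transcript lengths, and cover counting error only.

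Genes were named by rule: the 3 highest of each complex, the 3 lowest and highest tested log2 fold changes of each comparison, isoform pairs, Cycs and Sdha to Sdhd. A gene that this rule names is not reported here. Ndufv1, Ndufs1, Ndufv3, Ndufb7, Uqcrc2 and Atp5b were chosen after their values were seen. So were the remaining genes called higher at a common protein-coding sum and the named genes outside the family. The members and lists were chosen with earlier results of these data known. Positions and promoters are from RefSeq on GRCm38.p6, the assembly that mm10 represents. Alternatives were 4 other scalings, pseudocount 0.1, no filter, a mean of at least 5 FPKM, the highest row per symbol, no trend, the 2 groups alone, a replicate block and leaving out each library. The scaling to a common mRNA fragment share and the leave-one-out fits at a common 75th percentile were chosen after seeing the data.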

Additional observations from a re-analysis of the deposited data

Results flagged for a closer look

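In 4 genes 1 Herb library lay far from the other Herb libraries by Dixon's criterion, which flags about 1 in 20 groups of this size by chance; 41 named genes were examined. Atp5g2 was at 11.8 FPKM in Herb replicate 4 and at 0 to 0.0179 FPKM in the others. Atp5o was listed at 0 in Herb replicate 3 and was at 10.9 to 13.8 FPKM in the others. Atp5s, which matches by name only, was at 0.003 FPKM in Herb replicate 2 and at 1.43 to 1.66 FPKM in the others. Cox7a1, the muscle isoform of complex IV, was at 2.42 FPKM in Herb replicate 2, the library with a skeletal muscle marker sum of 142 FPKM, and at 0.517 to 0.565 FPKM in the others.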

How the results depend on the processing

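The order of values below is a common 75th percentile, a common sum of protein-coding FPKM, a common mRNA fragment share and quantile normalization, and genes are counted over both directions. In OVA vs. Saline, 6853 genes of all tested passed as deposited and 4666, 5226, 4789 and 4004 under these scalings, and 49, 40, 40 and 34 of the family did. By complex, the numbers were 23, 15, 17 and 16 for complex I, 1, 1, 0 and 0 for complex II, 6, 3, 4 and 2 for complex III, 12, 10, 11 and 9 for complex IV and 6, 6, 6 and 6 for complex V. In Herb vs. OVA the numbers were 76, 621, 127 and 157 of all tested and 0 of the family, and of each complex, under all 4. In Herb vs. Saline, 2921 genes of all tested passed as deposited and 1596, 2385, 1922 and 841 under these scalings, and 21, 15, 11 and 4 of the family did. By complex, the numbers were 11, 3, 2 and 0 for complex I, 0, 1, 0 and 0 for complex II, 2, 2, 2 and 1 for complex III, 5, 6, 5 and 2 for complex IV and 3, 2, 2 and 1 for complex V. A mean of at least 5 FPKM left fewer genes to test, and 3180, 2722 and 1716 of them passed in OVA vs. Saline, Herb vs. OVA and Herb vs. Saline. Complex III had 5 calls in Herb vs. OVA with no filter and 5 with only the 2 groups compared, and complex V had 8 in Herb vs. Saline with only the 2 groups compared. Leaving out each library in turn gave 3225 to 5069 genes of all tested, 4 to 9 of complex III, and 0 to 2 of the family at a common 75th percentile in Herb vs. OVA. In Herb vs. Saline it gave 897 to 3156 genes of all tested, 15 to 44 of the family and 0 to 19 at a common 75th percentile, and 5 to 20 for complex I, 0 to 1 for complex II, 2 to 5 for complex III, 5 to 11 for complex IV and 3 to 5 for complex V. The lowest numbers came without Saline replicate 2 in Herb vs. Saline (897 genes of all tested) and without OVA replicate 1 in Herb vs. OVA (3225). The replicate numbers are shared by the groups, but same-numbered libraries did not deviate together (correlations of −0.009 to 0.095), so they were not treated as pairs. With the replicate number as a block, 78, 52 and 26 genes of the family passed in OVA vs. Saline, Herb vs. OVA and Herb vs. Saline, and 1342 genes of all tested in Herb vs. Saline. The block left 1 subunit of complex II and 5 of complex III in Herb vs. OVA, and 11 of complex I, 3 of complex III and 6 of complex IV in Herb vs. Saline. It turned Atp5s to −0.11 in Herb vs. OVA and Sdha to 0.31 in Herb vs. Saline.

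The sign of the following named genes turned, with the log2 fold change under each alternative. At a common 75th percentile, OVA vs. Saline gave 0.46 for Atp5s, 0.62 for Cox5b, 0.25 for Ndufb11 and 0.50 for Ndufs5. On that scale, Herb vs. OVA gave −0.29 for Atp5s. Herb vs. Saline at a common 75th percentile gave 0.15 for Atp5h, 0.16 for Atp5s, 0.11 for Cox4i1, 0.061 for Cox6b2, 0.042 for Sdha, 0.24 for Sdhc and 0.20 for Sdhd. At a common sum of protein-coding FPKM, OVA vs. Saline gave 0.30 for Atp5a1, 0.053 for Atp5e, 0.30 for Atp5h, 0.71 for Atp5s, 0.29 for Cox4i1, 1.01 for Cox5b, 0.044 for Cox6b2, 0.75 for Ndufb11, 0.88 for Ndufs5, 0.51 for Sdhc and 0.17 for Sdhd. At a common sum of protein-coding FPKM, Herb vs. OVA gave −0.43 for Atp5s, −0.0020 for Cox4i2, −0.075 for Cox5b, −0.13 for Sdhb and −0.061 for Uqcr11. At a common sum of protein-coding FPKM, Herb vs. Saline gave 0.32 for Atp5a1, 0.10 for Atp5e, 0.078 for Atp5g3, 0.48 for Atp5h, 0.29 for Atp5s, 0.44 for Cox4i1, 0.29 for Cox6b2, 0.25 for Sdha, 0.55 for Sdhc, 0.51 for Sdhd and 0.17 for Uqcrh. At a common mRNA fragment share, OVA vs. Saline gave 0.080 for Atp5a1, 0.078 for Atp5h, 0.61 for Atp5s, 0.067 for Cox4i1, 0.86 for Cox5b, 0.55 for Ndufb11, 0.72 for Ndufs5 and 0.30 for Sdhc. At a common mRNA fragment share, Herb vs. OVA gave −0.36 for Atp5s and −0.035 for Sdhb. At a common mRNA fragment share, Herb vs. Saline gave 0.19 for Atp5a1, 0.36 for Atp5h, 0.25 for Atp5s, 0.31 for Cox4i1, 0.21 for Cox6b2, 0.16 for Sdha, 0.43 for Sdhc, 0.40 for Sdhd and 0.039 for Uqcrh. After quantile normalization, OVA vs. Saline gave 0.64 for Atp5a1, 0.36 for Atp5e, 0.63 for Atp5h, 0.43 for Atp5s, 0.67 for Cox4i1, 0.72 for Cox5b, 0.64 for Ndufb11, 0.46 for Ndufs5, 0.37 for Sdhc, 0.069 for Sdhd and 0.0028 for Uqcrh. After quantile normalization, Herb vs. OVA gave −0.11 for Atp5a1, −0.032 for Atp5e, −0.30 for Atp5s, −0.041 for Cox4i1, −0.034 for Cox6a2, −0.056 for Sdhb and −0.082 for Uqcr11. After quantile normalization, Herb vs. Saline gave 0.53 for Atp5a1, 0.32 for Atp5e, 0.15 for Atp5g3, 0.67 for Atp5h, 0.13 for Atp5s, 0.63 for Cox4i1, 0.051 for Sdha, 0.47 for Sdhc, 0.49 for Sdhd and 0.38 for Uqcrh. Pseudocount 0.1 gave −0.39 in Herb vs. OVA and 0.21 in OVA vs. Saline for Atp5s, and the highest row of each symbol gave 0.13 in Herb vs. Saline for Atp5g3. Leaving out each library in turn gave log2 fold changes of −0.40 to 0.37 for Atp5s, −0.64 to 0.80 for Cox5b, −0.38 to 0.22 for Ndufs5 and −1.68 to 0.14 for Sdha in OVA vs. Saline. Leaving out each library in turn gave log2 fold changes of −0.11 to 0.35 for Atp5s in Herb vs. OVA. Leaving out each library in turn gave log2 fold changes of −0.37 to 0.39 for Atp5s, −0.037 to 1.41 for Cox5b, −0.20 to 0.69 for Ndufb11 and −0.83 to 0.99 for Sdha in Herb vs. Saline.

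The direction of the family's median was the same under all 5 scalings in each comparison, while the number of calls was not. The cause of these changes was not tested. The median gene of the family rested on 90 to 507 fragments per library, and no limit of detection was computed.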
